A study of Mus musculus with 9 samples.

Results

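The 35 genes described here carry out or control cholesterol synthesis, transport, export and conversion to oxysterols, and their mRNAs were counted in 9 RNA-seq libraries from 3 mouse striatal cell lines. They were taken by gene symbol from the 36410 genes of the deposited count table, and 34 of the 35 were among the 13508 genes that were counted deeply enough to be tested. The list holds 18 enzymes of synthesis, 5 genes that control the sterol regulatory element-binding proteins (SREBPs), 4 genes of intracellular transport and esterification, 5 genes of efflux and the liver X receptors (LXRs), and 3 oxysterol-forming hydroxylases. The lines are immortalized cells from mouse embryos, labelled as C57/BL6, and all 3 express a knockin exon 1 of the huntingtin gene. Control cells (STHdhQ7/Q7) carry 7 glutamine codons on both alleles, HD-het cells (STHdhQ7/Q111) carry 7 on one and 111 on the other, and HD-homo cells (STHdhQ111/Q111) carry 111 on both. There is a single line per genotype, and an effect of the alleles cannot be told apart from other differences between the lines. The labels do not say whether the 3 libraries of a line came from separate cultures, and the p values therefore measure the spread between these libraries, which may be technical.

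Cells make cholesterol from acetyl-CoA through mevalonate, the isoprenoid diphosphates and squalene, and then convert lanosterol to cholesterol in a series of demethylation, reduction and isomerization steps. SREBP2, escorted by SCAP and held in the endoplasmic reticulum by the INSIG proteins when sterols are plentiful, drives transcription of the synthesis genes. Oxysterols have the opposite role, since they activate LXRs, which turn on the exporters ABCA1 and ABCG1 and the ubiquitin ligase MYLIP. In the brain cholesterol is made locally, and neurons turn part of it into an oxysterol that can leave the tissue. Sterol synthesis has been studied in Huntington disease, where brain sterol metabolism is known to be altered.

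The libraries held 29507665 to 41197931 counts, so that 3 counts, taken as the detection floor, corresponded to 0.0710 to 0.101 CPM. CPM here means the counts of a gene per 1000000 counts on tested genes after TMM normalization, and floors cover counting error only. The labelled tissue was checked with 11 markers of striatal neurons. Of these, 9 were under 1 CPM in every library (Ppp1r1b, Drd1, Drd2, Adora2a, Rgs9, Bcl11b, Rbfox3, Syp and Snap25), with Drd1 at 0 counts throughout, whereas Map2 and Tubb3 were expressed, and the 11 summed to 89.8 to 115 CPM. Mesenchymal markers summed to 8257 to 8726 CPM in control, 12727 to 13590 in HD-het and 10301 to 11232 in HD-homo libraries, led by Col1a1 and Vim, with Thy1 under 1 CPM. Members of this sum moved in different directions, since Col1a1 was at 2465 ± 382, 7097 ± 734 and 4234 ± 226 CPM (SD, n = 3), Col1a2 at 73.4 ± 6.19, 3.15 ± 0.424 and 1494 ± 74.95 and Vim, lower in both HD lines, at 5383 ± 273, 4568 ± 272 and 4264 ± 239 CPM over control, HD-het and HD-homo cells. Astrocyte markers summed to 2.71 to 3.01, 1.0997 to 1.59 and 12.8 to 18.6 CPM over the 3 lines in that order. Slc1a3 was the highest of them, at 2.24 ± 0.179, 0.644 ± 0.330 and 14.6 ± 2.76 CPM. Gfap, Aqp4, Aldh1l1 and Slc1a2 were under 1 CPM in every library. Of these, Gfap and Aldh1l1 had their lowest mean and Slc1a2 its highest in HD-homo cells. Oligodendrocyte markers summed to 6.80 to 7.20, 13.1 to 16.4 and 8.19 to 10.3 CPM, mostly from Cnp, with Mog at 0 and Mag under 1 CPM. Mbp, unlike this sum, had its highest mean in HD-homo cells, at 1.23 ± 0.488 CPM. The 5 microglial markers summed to at most 2.45 CPM, with Csf1r the highest, Cx3cr1, P2ry12 and Ptprc under 1 CPM and Aif1 at 0. The 4 endothelial markers, Pecam1, Cdh5, Tek and Kdr, were each under 1 CPM, with Kdr the highest. The part of these differences in the values below was not tested. In bulk RNA, fewer cells of a kind cannot be told apart from less of the mRNA per cell.

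Lower mRNA of the synthesis enzymes was measured in both HD lines, and more strongly in HD-het cells. In HD-het against control cells, 15 of the 18 synthesis enzymes were lower, 1 was higher and 2 were not called, with a median log2 fold change of -0.91. In this comparison 65.1% of all tested genes were called, 31.4% as lower and 33.8% as higher, and their median was 0.03. In HD-homo against control cells, 15 were lower, 0 were higher and 3 were not called, with a median of -0.49, where 58.6% of all tested genes were called, 28.9% as lower and 29.6% as higher, and their median was 0.01. Calls were made with the quasi-likelihood test of edgeR at an adjusted p under 0.05, with Benjamini-Hochberg adjustment over all tested genes. Both HD lines were set against the same 3 control libraries, so that their values stand side by side but are not independent. When the HD lines were compared with each other, 11 of the 18 enzymes were higher in HD-homo cells, 3 were lower and 4 were not called, with a median of 0.45. Of those 11, Nsdhl and Hsd17b7 were no longer called without some single libraries. In that comparison 71.6% of all tested genes were called, 36.0% as higher and 35.6% as lower, and their median was 0.00.

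Among all 34 tested genes of the list, 10 were higher and 19 lower in HD-het cells, and 6 were higher and 20 lower in HD-homo cells, each against control. Of all tested genes, 33.8% were higher and 31.4% lower in HD-het cells, and 29.6% were higher and 28.9% lower in HD-homo cells. The 10 higher genes in HD-het cells, 29.4% of the list, were thus near the share of all genes. Ch25h and Cyp27a1 reached the tested set through HD libraries in which they were high. The counts here that include them, of higher genes and of libraries that did not overlap, are therefore a description. The 3 libraries of HD-het cells did not overlap those of control cells for 30 of the 34 genes (74.0% of all tested genes), those of HD-homo and control cells for 26 (65.3%), and those of both HD lines for 22 (72.8%). The summed level of the 18 synthesis enzymes was 1434 ± 149 CPM (SD, n = 3) in control, 670 ± 44.2 in HD-het and 1125 ± 201 in HD-homo libraries. In HD-het libraries this sum lay between 642 and 721 CPM, below all HD-homo and control libraries. The HD-homo libraries, at 912 to 1312 CPM, all lay below the lowest control library, at 1325 CPM. Of the 18 enzymes, 12 had the order control, then HD-homo, then HD-het from the highest mean to the lowest.

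**Figure D1:**
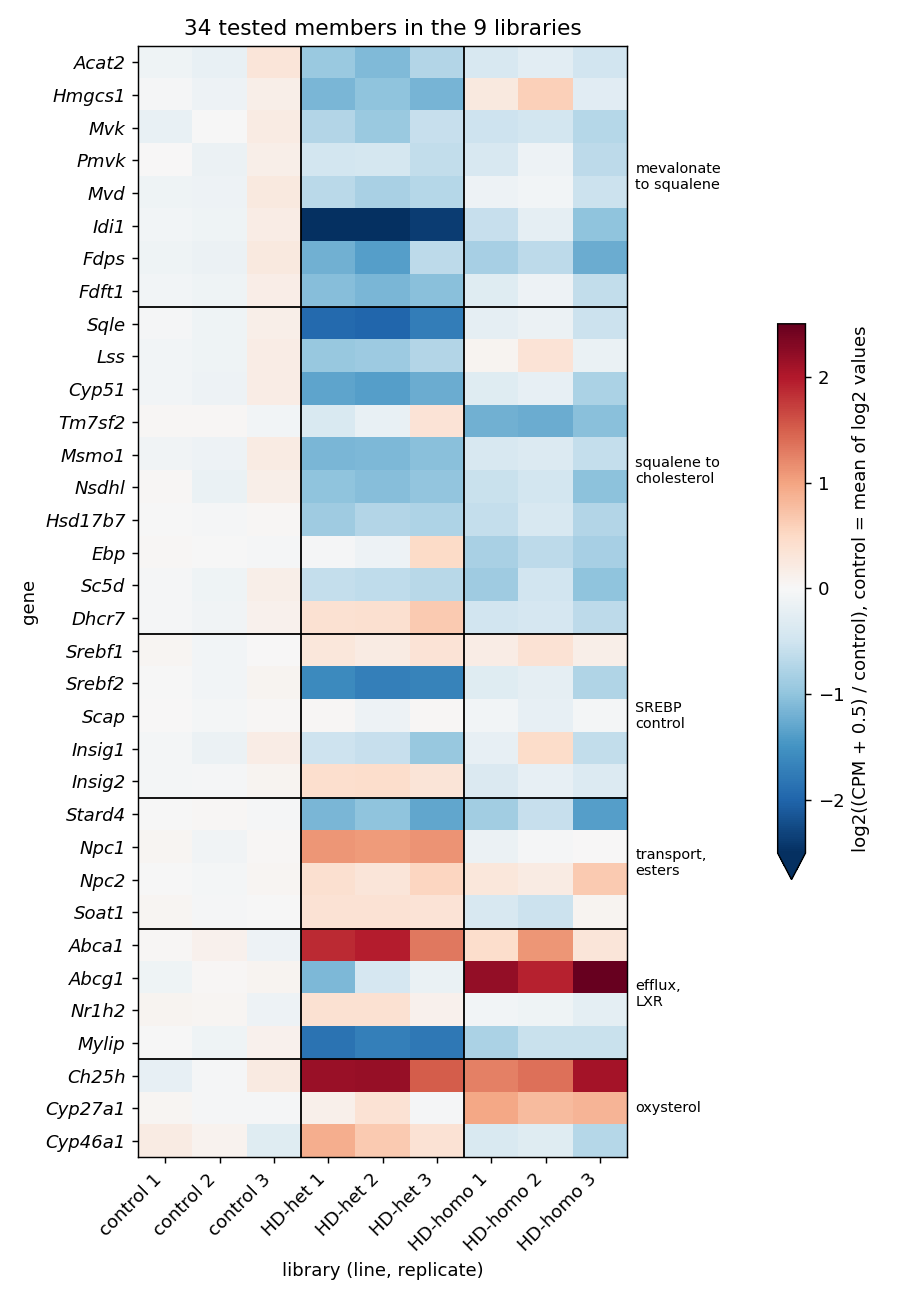
Level of the 34 tested genes (rows, grouped by role) in the 9 libraries (columns), as log2 of CPM + 0.5 relative to the mean of the 3 control libraries. Colour runs from -2.5 (blue) to 2.5 (red). Values of Idi1 below -2.5 take the darkest blue, and Abcg1 in HD-homo replicate 3, above 2.5, takes the darkest red. The upper rows are mainly blue in HD-het and paler blue in HD-homo libraries, while Abca1, Ch25h and Npc1 are red in HD-het and Abcg1 is red in HD-homo libraries.

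Promoters were examined because the synthesis genes moved together. RefSeq start sites on GRCm38.p6 gave windows from 250 bases before to 50 after the start for 29 of the 35 genes, in 38 windows, and 15 of the 18 synthesis enzymes were among them. Sqle, Fdps, Fdft1, Abcg1, Npc1 and Stard4 had no entry. CCAAT, the letters bound by NF-Y, a factor that works beside SREBPs at many sterol genes, was searched on both strands. It was present in 14 of these 15 synthesis genes, Acat2 being the exception, and in 14 of their 18 windows (77.8%), against 37.4% of all 32851 windows and 37.7% of those of tested genes. In the efflux and oxysterol group it was present in 3 of 7 genes, Cyp27a1, Cyp46a1 and Mylip. Over all 29 genes it was present in 23, and in 63.2% of the 38 windows. Outside both groups, Insig1, Insig2, Npc2, Soat1, Srebf1 and Srebf2 held it and Scap did not. Of these, Insig2, Npc2, Soat1 and Srebf1 were higher in HD-het cells. Among the enzymes, Dhcr7, Ebp and Tm7sf2 held it without being lower in HD-het cells, whereas Acat2 was lower in both HD lines. TCACNCCAC, the form of a sterol regulatory element searched, was present in Hmgcs1 alone among the 29 genes, and in 1.24% of all windows. CACGTG, the E-box, which reads the same on both strands, was present in Dhcr7, Hsd17b7, Sc5d, Abca1, Insig1 and Scap, or 18.4% of the 38 windows, against 7.15% of all windows and 9.69% of those of tested genes. These are matches of letters and not measured binding.

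The 250 bases before the start are shown for 3 mevalonate enzymes and for Abca1, the exporter that was higher in both HD lines. They are at chr13:119690101-119690350, plus strand, at chr5:114444019-114444268, plus strand, at chr8:122443423-122443672, minus strand, and at chr4:53159896-53160145, minus strand. Capitals mark CCAAT or its complement ATTGG, and TCACNCCAC in Hmgcs1. The Hmgcs1 and Mvk stretches hold several CCAAT matches each, Mvd holds a pair, and Abca1 holds none.
Hmgcs1: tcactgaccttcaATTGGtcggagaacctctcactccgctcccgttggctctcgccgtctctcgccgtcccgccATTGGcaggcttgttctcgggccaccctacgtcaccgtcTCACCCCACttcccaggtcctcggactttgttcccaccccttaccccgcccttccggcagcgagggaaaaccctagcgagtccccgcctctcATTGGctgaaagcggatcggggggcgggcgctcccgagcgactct
Mvk: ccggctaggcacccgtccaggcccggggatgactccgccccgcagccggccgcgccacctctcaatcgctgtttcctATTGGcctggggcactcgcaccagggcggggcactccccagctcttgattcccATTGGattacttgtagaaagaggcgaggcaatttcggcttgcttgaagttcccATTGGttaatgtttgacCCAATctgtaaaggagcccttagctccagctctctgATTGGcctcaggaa
Mvd: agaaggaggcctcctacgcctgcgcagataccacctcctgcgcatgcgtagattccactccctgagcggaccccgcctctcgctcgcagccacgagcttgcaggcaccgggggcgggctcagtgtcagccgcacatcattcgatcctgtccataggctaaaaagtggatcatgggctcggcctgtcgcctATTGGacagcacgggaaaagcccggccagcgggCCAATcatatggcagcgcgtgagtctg
Abca1: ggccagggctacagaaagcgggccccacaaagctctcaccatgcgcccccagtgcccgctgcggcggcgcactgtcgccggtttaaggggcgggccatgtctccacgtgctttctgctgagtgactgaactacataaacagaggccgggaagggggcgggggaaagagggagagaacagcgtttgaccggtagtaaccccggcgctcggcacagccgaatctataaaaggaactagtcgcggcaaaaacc

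All 8 listed enzymes from acetyl-CoA to squalene were below control in HD-het cells, and 6 of the 8 were lower in HD-homo cells. Of all tested genes, 31.4% were lower in HD-het and 28.9% in HD-homo cells. Enzymes of this stretch outside the list, such as HMG-CoA reductase, were not analysed here. Idi1 (chr13:8885501-8892451, plus strand, GRCm38), the isomerase that makes dimethylallyl diphosphate from isopentenyl diphosphate, had the largest decrease of the 35 genes in HD-het cells. It was at 71.3, 70.1 and 85.3 CPM in control, 11.4, 12.1 and 14.2 in HD-het and 50.7, 64.4 and 37.4 in HD-homo libraries. The 3 lines did not overlap, with HD-homo libraries in between. Idi1 was 6.01-fold below control in HD-het (log2 fold change -2.59 ± 0.18 (SE), adjusted p = 3.8e-07) and 1.49-fold below control in HD-homo cells (log2 fold change -0.57 ± 0.16 (SE), adjusted p = 0.0109). Between the HD lines, HD-homo cells had the 4.04-fold higher level (log2 fold change 2.02 ± 0.18 (SE), adjusted p = 1.4e-06).

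Hmgcs1 (chr13:119690379-119708260, plus strand), the cytosolic synthase that makes HMG-CoA, behaved differently in the HD lines. Its libraries were at 177, 166 and 199.7 CPM in control, 81.5, 89.6 and 79.97 in HD-het and 214, 272 and 149 in HD-homo cells. All HD-het libraries lay below the control range, whereas the HD-homo libraries spanned it, with 1 below and 2 above. Hmgcs1 was 2.16-fold lower in HD-het cells (log2 fold change -1.11 ± 0.17 (SE), adjusted p = 0.00015), and HD-homo cells exceeded HD-het cells 2.53-fold (log2 fold change 1.34 ± 0.17 (SE), adjusted p = 2.8e-05). Against control cells it was not called in HD-homo cells (log2 fold change 0.23 ± 0.17 (SE), adjusted p = 0.263). Without HD-homo replicate 3, the lowest of them, it was called higher there, at a log2 fold change of 0.43 and an adjusted p of 0.00573.

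Fdps and Fdft1 stand where the pathway forms farnesyl diphosphate and joins it to squalene. Fdps was at 98.5, 96.2 and 126 CPM in control, 45.9, 40.6 and 67.3 in HD-het and 59.1, 66.8 and 44.8 in HD-homo libraries, so that both HD lines lay below the control range and overlapped each other. It was lower in HD-het (log2 fold change -1.06 ± 0.19 (SE), adjusted p = 0.00051) and in HD-homo cells (log2 fold change -0.91 ± 0.19 (SE), adjusted p = 0.00174). Fdft1 was at 68.9, 67.5 and 81.8 CPM in control, 34.5, 32.4 and 34.7 in HD-het and 58.8, 66.3 and 46.8 in HD-homo libraries, with no overlap between any lines. It was 2.15-fold lower in HD-het (log2 fold change -1.10 ± 0.12 (SE), adjusted p = 1e-05) and 1.27-fold lower in HD-homo cells (log2 fold change -0.34 ± 0.12 (SE), adjusted p = 0.0246). Exons of these genes share bases with other annotated genes, 26.7% of Fdps with Gm43738 on the same strand and 18.3% of Fdft1 with Ctsb on the opposite strand, and whether counting used the strand is not stated.

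The other 4 listed enzymes of this stretch are the thiolase Acat2, which starts the pathway, the kinases Mvk and Pmvk, and the decarboxylase Mvd. Mean levels over control, HD-het and HD-homo cells were 43.99 ± 8.43, 22.8 ± 2.97 and 33.3 ± 2.499 CPM (SD, n = 3) for Acat2. Mvk was at 32.5 ± 4.52, 19.3 ± 2.38 and 21.7 ± 1.996 CPM in the same order. Acat2 and Mvk were lower in both HD lines. In HD-het against control cells the log2 fold change was -0.95 ± 0.13 for Acat2, -0.76 ± 0.12 for Mvk, -0.52 ± 0.13 for Pmvk and -0.77 ± 0.14 for Mvd, and all passed the test. In HD-homo against control cells Acat2 (-0.40 ± 0.13), Mvk (-0.58 ± 0.12) and Pmvk (-0.39 ± 0.13) passed it, while Mvd did not (log2 fold change -0.25 ± 0.14 (SE), adjusted p = 0.143). Mvd levels were 18.8 ± 2.88, 11.02 ± 0.529 and 15.8 ± 2.76 CPM, and Pmvk levels 23.9 ± 2.48, 16.6 ± 1.12 and 18.1 ± 3.41 CPM.

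From squalene to cholesterol, 7 of 10 listed enzymes were lower and 1 was higher in HD-het than in control cells, and 9 of 10 were lower in HD-homo cells. Of all tested genes, 31.4% were lower in HD-het and 28.9% in HD-homo cells. Sqle (chr15:59315077-59331192, plus strand), the epoxidase that commits squalene to sterols, was at 224, 213 and 253 CPM in control, 59.2, 57.6 and 68.5 in HD-het and 197, 208 and 157 in HD-homo libraries. HD-het libraries lay far below the other lines, and HD-homo libraries just below the control range. Sqle was 3.72-fold lower in HD-het cells (log2 fold change -1.90 ± 0.11 (SE), adjusted p = 1.2e-07) and 1.23-fold lower in HD-homo cells (log2 fold change -0.29 ± 0.11 (SE), adjusted p = 0.0354). HD-homo cells exceeded HD-het cells 3.04-fold (log2 fold change 1.60 ± 0.11 (SE), adjusted p = 2e-07). Cyp51, the lanosterol demethylase, followed the same order at 167, 161 and 199.7 CPM in control, 69.8, 67.2 and 74.01 in HD-het and 142, 151 and 102 in HD-homo libraries. It was 2.501-fold lower in HD-het (log2 fold change -1.32 ± 0.13 (SE), adjusted p = 6.7e-06) and 1.34-fold lower in HD-homo cells (log2 fold change -0.42 ± 0.13 (SE), adjusted p = 0.0176).

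Lss, the cyclase that makes lanosterol, was lower in HD-het cells alone among the comparisons with control cells. It was at 60.2, 58.4 and 71.98 CPM in control, 32.4, 33.3 and 37.7 in HD-het and 66.7, 80.1 and 56.3 in HD-homo libraries, and the HD-homo libraries overlapped the control range on both sides. The test gave log2 fold change -0.88 ± 0.13 (SE), adjusted p = 8.8e-05, for HD-het and log2 fold change 0.09 ± 0.12 (SE), adjusted p = 0.531, for HD-homo cells. The oxidase Msmo1, the dehydrogenase Nsdhl and the ketosteroid reductase Hsd17b7, which together remove methyl groups from lanosterol derivatives, were lower in both lines and passed the test in each. Their log2 fold changes in HD-het cells were -1.12 ± 0.09 (Msmo1), -1.05 ± 0.13 (Nsdhl) and -0.80 ± 0.08 (Hsd17b7), and in HD-homo cells -0.45 ± 0.09, -0.68 ± 0.13 and -0.57 ± 0.08, in that order. Msmo1 levels were 166 ± 20.9, 76.4 ± 2.75 and 121 ± 11.5 CPM over control, HD-het and HD-homo cells. Hsd17b7 levels were 81.1 ± 1.86, 46.6 ± 2.65 and 54.6 ± 6.37 CPM, and Nsdhl levels 31.2 ± 3.38, 15.1 ± 0.329 and 19.5 ± 3.93 CPM.

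Like Hmgcs1 and Lss, the enzymes Sc5d, Ebp, Tm7sf2 and Dhcr7 departed from the order of control, HD-homo and HD-het. Sc5d, the lathosterol desaturase, was lower in both HD lines, with levels of 73.6 ± 7.03, 47.1 ± 1.67 and 42.6 ± 8.65 CPM over control, HD-het and HD-homo cells (log2 fold change -0.64 ± 0.12 (SE), adjusted p = 0.0007, in HD-het and log2 fold change -0.79 ± 0.12 (SE), adjusted p = 0.00021, in HD-homo cells). Ebp, the sterol isomerase, was at 41.4, 40.3 and 40.0 CPM in control, 39.96, 37.01 and 56.7 in HD-het and 22.9, 25.5 and 22.8 in HD-homo libraries. It was lower in HD-homo cells (log2 fold change -0.77 ± 0.13 (SE), adjusted p = 0.00049) and was not called in HD-het cells (log2 fold change 0.13 ± 0.13 (SE), adjusted p = 0.39), where replicate 3 lay above the others. Tm7sf2, a sterol reductase, was at 3.98, 3.95 and 3.69 CPM in control, 2.88, 3.32 and 5.06 in HD-het and 1.41, 1.35 and 1.61 in HD-homo libraries. All HD-homo libraries were below the rest (log2 fold change -1.41 ± 0.21 (SE), adjusted p = 0.00015), and the HD-het libraries spanned the control range (log2 fold change -0.05 ± 0.19 (SE), adjusted p = 0.839). Tm7sf2 shares 12.1% of its exon bases with Vps51 on the same strand.

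Dhcr7 (chr7:143823145-143848410, plus strand), the reductase that forms cholesterol from its direct precursor, was the 1 synthesis enzyme that was higher in HD-het cells. Its libraries were at 13.4, 12.8 and 14.7 CPM in control, 17.9, 18.1 and 21.6 in HD-het and 9.63, 10.02 and 8.44 in HD-homo cells. The 3 lines did not overlap, with HD-het above and HD-homo below the control range. Dhcr7 was 1.41-fold higher in HD-het (log2 fold change 0.50 ± 0.10 (SE), adjusted p = 0.00124) and 1.45-fold lower in HD-homo cells (log2 fold change -0.54 ± 0.11 (SE), adjusted p = 0.00115). Between the HD lines it was 2.05-fold lower in HD-homo cells (log2 fold change -1.04 ± 0.10 (SE), adjusted p = 4.2e-06). Ebp and Tm7sf2 were also lower when HD-homo was set against HD-het, at log2 fold changes of -0.91 ± 0.13 and -1.37 ± 0.21, and these were the 3 synthesis enzymes called in that direction.

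**Figure D2:**
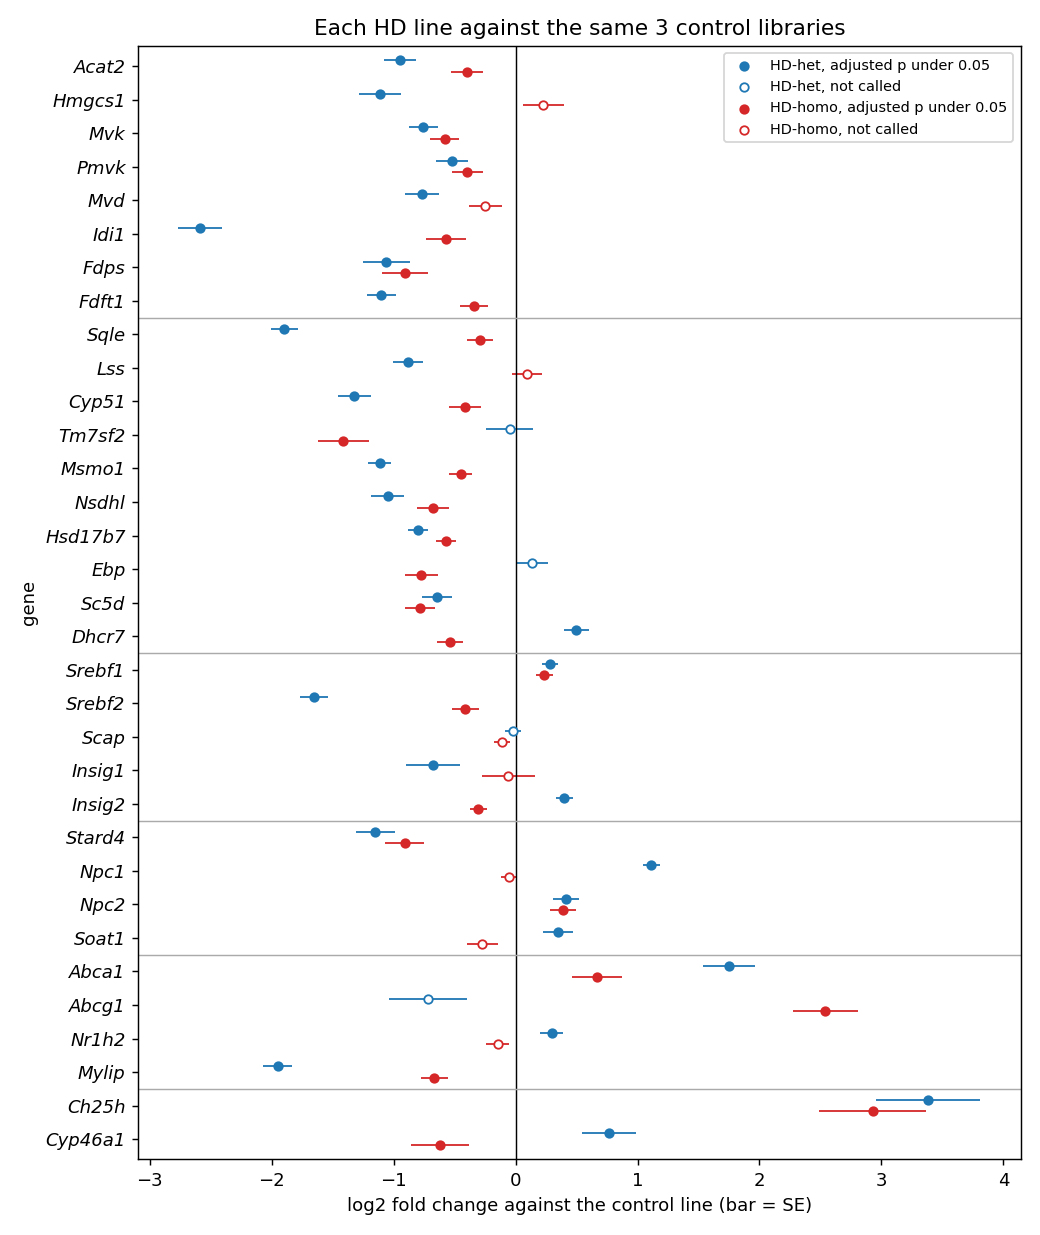
Log2 fold change of each gene (rows) in HD-het (blue) and HD-homo (red) against the same 3 control libraries, with bars for the SE; filled circles passed an adjusted p of 0.05, open circles did not, and Cyp27a1 is left out because its control counts were at the floor. Most synthesis enzymes lie left of 0 in both lines, with Idi1 (-2.59) and Sqle (-1.90) farthest left in HD-het, and Ch25h, which entered the tested set through the HD libraries, lies farthest right in both.

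The synthesis enzymes also differed together between libraries of 1 line. In HD-homo cells replicate 2 was the highest of the 3 libraries for 17 of 18 enzymes and replicate 3 the lowest for 17 of 18, with Tm7sf2 as the exception in both. Over all tested genes, HD-homo replicate 2 was the highest in 35.8%. The median ratio of HD-homo replicate 2 to replicate 3 was 1.41 over the enzymes and 1.00 over all tested genes. Control replicate 3 was the highest for 16 of 18 enzymes, against 37.6% of all tested genes, and its median ratio to control replicate 2 was 1.21 over the enzymes and 0.998 over all tested genes. HD-het replicate 3 was the highest for 13 of 18, against 40.0% of all tested genes. Some calls rested on these libraries. Of the 15 enzymes that were lower in the HD-homo line, 10 were called without control replicate 3, when Pmvk, Fdft1, Sqle, Cyp51 and Acat2 were no longer called, and 11 without HD-homo replicate 3, when Pmvk, Fdft1, Sqle and Acat2 were not. Without these libraries the log2 fold change of Sqle in HD-homo cells was -0.22 and -0.18, respectively. Calls in HD-homo cells were also lost for Pmvk and Sqle without control replicate 1 and for Pmvk and Acat2 without HD-homo replicate 1. In HD-het against control cells the count of lower enzymes was 15 whichever library was left out. Pairs of HD-homo libraries differed more than other pairs over all genes, with chi-square values of 22.6 to 39.3 per degree of freedom against 2.2 to 21.1 in the other lines.

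**Figure D3:**
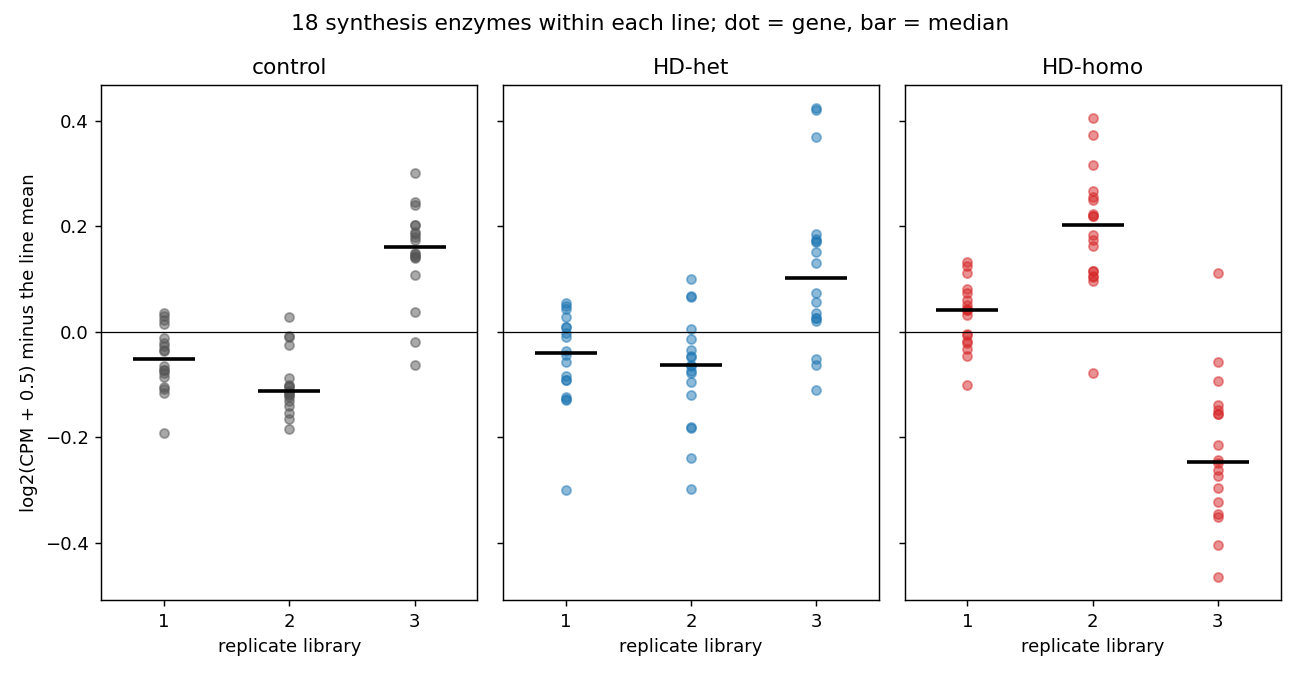
Level of each of the 18 synthesis enzymes (dots) in the 3 replicate libraries of each line, as log2 of CPM + 0.5 minus the mean of the line, with the median as a bar. Nearly all dots of HD-homo replicate 2 lie above 0 and those of replicate 3 below it, and control replicate 3 lies above the other control libraries.

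Among the genes that control SREBPs, Srebf2 moved with the enzymes and Srebf1 did not. Srebf2 (chr15:82147181-82205379, plus strand), which encodes SREBP2, was at 404, 389 and 425 CPM in control, 134, 125 and 128 in HD-het and 327, 348 and 241 in HD-homo libraries. The lines did not overlap, and HD-homo libraries lay between the others. It was 3.15-fold lower in HD-het (log2 fold change -1.65 ± 0.11 (SE), adjusted p = 3.8e-07) and 1.33-fold lower in HD-homo cells (log2 fold change -0.41 ± 0.11 (SE), adjusted p = 0.0079). Srebf1, which encodes the SREBP1 forms that mainly serve fatty acid synthesis, was at 106, 96.8 and 102 CPM in control, 124, 118 and 129 in HD-het and 116, 130.3 and 112 in HD-homo libraries. Both HD lines lay above the control range and overlapped each other. Srebf1 was 1.21-fold higher in HD-het (log2 fold change 0.28 ± 0.07 (SE), adjusted p = 0.00347) and 1.18-fold higher in HD-homo cells (log2 fold change 0.24 ± 0.07 (SE), adjusted p = 0.0111), and the second call was lost without control replicate 2 (0.20, adjusted p = 0.0534). The ratio of Srebf2 to Srebf1, each as CPM per kilobase of exon, was 3.00 to 3.26 in control, 0.781 to 0.851 in HD-het and 1.68 to 2.21 in HD-homo libraries.

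The SREBP partners differed from each other. Scap, the sterol-sensing escort, had levels of 108 ± 2.96, 106 ± 6.25 and 100.1 ± 5.902 CPM over control, HD-het and HD-homo cells and was not called (log2 fold change -0.02 ± 0.06 (SE), adjusted p = 0.774, in HD-het and log2 fold change -0.11 ± 0.06 (SE), adjusted p = 0.164, in HD-homo cells). Insig1, a retention protein that is itself an SREBP target, was at 78.98, 73.7 and 93.01 CPM in control, 56.8, 54.7 and 42.3 in HD-het and 70.6, 112 and 53.1 in HD-homo libraries. It was lower in HD-het cells (log2 fold change -0.67 ± 0.22 (SE), adjusted p = 0.0193), a call that was lost without control replicate 3 or HD-het replicate 3. The HD-homo libraries spanned more than the control range, with replicate 2 above it (log2 fold change -0.06 ± 0.22 (SE), adjusted p = 0.832), and without that library Insig1 was called lower, at -0.40 and an adjusted p of 0.0392. Insig2, the second retention protein, was at 27.1, 27.4 and 29.5 CPM in control, 37.5, 37.95 and 35.2 in HD-het and 21.7, 24.1 and 22.04 in HD-homo libraries. It was higher in HD-het (log2 fold change 0.40 ± 0.07 (SE), adjusted p = 0.00041) and lower in HD-homo cells (log2 fold change -0.31 ± 0.07 (SE), adjusted p = 0.0032), with no overlap between the lines.

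Of the 4 intracellular transport genes, 3 were higher and 1 was lower in HD-het cells, against 33.8% and 31.4% of all tested genes. Npc1 (chr18:12189692-12236400, minus strand), the membrane protein that moves cholesterol out of lysosomes, was at 29.99, 27.1 and 29.5 CPM in control, 62.7, 60.9 and 63.8 in HD-het and 26, 28.2 and 29.05 in HD-homo libraries. The HD-het libraries stood apart and the other lines overlapped. Npc1 was 2.16-fold higher in HD-het cells (log2 fold change 1.11 ± 0.07 (SE), adjusted p = 1.4e-07) and was not called in HD-homo cells (log2 fold change -0.06 ± 0.07 (SE), adjusted p = 0.5). Npc2, its soluble lysosomal partner, was at 112, 108 and 115 CPM in control, 147, 139 and 162 in HD-het and 135, 128 and 176 in HD-homo libraries, higher in both HD lines (log2 fold change 0.42 ± 0.11 (SE), adjusted p = 0.00493, and log2 fold change 0.39 ± 0.11 (SE), adjusted p = 0.00852). Soat1, which esterifies cholesterol for storage, had levels of 115 ± 3.23, 146 ± 1.196 and 95.1 ± 22.1 CPM. It was higher in HD-het cells (log2 fold change 0.35 ± 0.12 (SE), adjusted p = 0.027), but the call was lost without control replicate 2 or 3 or HD-het replicate 1 or 2, and it was not called in HD-homo cells (log2 fold change -0.27 ± 0.12 (SE), adjusted p = 0.0799), where leaving out replicate 3 made it lower at -0.48.

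Stard4, a cytosolic carrier that brings cholesterol to the endoplasmic reticulum and is an SREBP target, was lower in both HD lines, unlike the other transport genes. Its libraries were at 115, 118 and 113 CPM in control, 52.2, 57.2 and 46.5 in HD-het and 63.2, 76.8 and 43.8 in HD-homo cells. Both HD lines lay below the control range and overlapped each other. The decrease was 2.22-fold in HD-het (log2 fold change -1.15 ± 0.16 (SE), adjusted p = 6.9e-05) and 1.88-fold in HD-homo cells (log2 fold change -0.91 ± 0.16 (SE), adjusted p = 0.00045).

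The efflux and oxysterol genes did not share 1 direction. Of the 7 tested, 4 were higher, 1 lower and 2 not called in HD-het against control cells, and 4 were higher, 2 lower and 1 not called in HD-homo against control cells. Of all tested genes, 33.8% were higher and 31.4% lower in HD-het cells, and 29.6% were higher and 28.9% lower in HD-homo cells, so that the lower efflux and oxysterol genes in HD-homo cells were near the share of all genes. Their median log2 fold change was 0.76 in HD-het and 0.67 in HD-homo cells, or 0.53 and 0.26 over the 6 genes without Cyp27a1, whose control counts were at the floor. With at least 10 counts required in every library, the median in HD-homo cells was -0.14. Ch25h and Cyp27a1 reached the tested set through libraries in which they were high, so that these counts and medians are a description.

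Abca1 (chr4:53030787-53159895, minus strand), which exports cholesterol to lipid-poor apolipoproteins, was higher in both HD lines. It was at 37.1, 39.2 and 33.1 CPM in control, 134, 142 and 91.4 in HD-het and 49.4, 78.7 and 45.2 in HD-homo libraries. No lines overlapped, and 1 library stood apart in each HD line, replicate 3 below in HD-het and replicate 2 above in HD-homo cells. Abca1 was 3.37-fold higher in HD-het (log2 fold change 1.75 ± 0.21 (SE), adjusted p = 2.4e-05) and 1.58-fold higher in HD-homo cells (log2 fold change 0.67 ± 0.21 (SE), adjusted p = 0.0172). The second call was lost without HD-homo replicate 2 (0.38, adjusted p = 0.0666) and without control replicate 3 (0.60, adjusted p = 0.0628).

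Abcg1 (chr17:31057675-31117988, plus strand), which exports cholesterol to lipoprotein particles, had another pattern. Its libraries were at 1.56, 1.75 and 1.83 CPM in control, 0.508, 1.16 and 1.47 in HD-het and 9.57, 7.89 and 12.5 in HD-homo cells. The HD-homo level exceeded that of control cells 5.83-fold (log2 fold change 2.54 ± 0.27 (SE), adjusted p = 9.4e-06) and that of HD-het cells 9.56-fold (log2 fold change 3.26 ± 0.28 (SE), adjusted p = 1.2e-06). In HD-het cells it was not called (log2 fold change -0.72 ± 0.32 (SE), adjusted p = 0.0699), although all 3 libraries lay below the control range and DESeq2 called it lower, at an adjusted p of 0.0352. Its counts in HD-het libraries were 18, 38 and 49. Of the exporters, Abca1 was thus higher in both HD lines and Abcg1 in HD-homo cells.

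Mylip, the LXR-induced ligase that degrades lipoprotein receptors, was lower in both HD lines. It was at 11.2, 10.3 and 12.1 CPM in control, 2.74, 3.08 and 2.88 in HD-het and 6.25, 7.39 and 7.49 in HD-homo libraries, and the 3 lines did not overlap. The decrease was 3.87-fold in HD-het (log2 fold change -1.95 ± 0.12 (SE), adjusted p = 1.5e-07) and 1.59-fold in HD-homo cells (log2 fold change -0.67 ± 0.11 (SE), adjusted p = 0.00031). Mylip, Abca1 and Abcg1, which are all known as LXR targets, thus had 3 different patterns over the lines. Of the receptors, Nr1h2, the broadly expressed LXR, had levels of 32.5 ± 2.46, 39.8 ± 4.45 and 29.3 ± 1.89 CPM over control, HD-het and HD-homo cells. It was higher in HD-het cells (log2 fold change 0.29 ± 0.09 (SE), adjusted p = 0.0165), a call lost without control replicate 3 or without HD-het replicate 1 or 2, and it was not called in HD-homo cells (log2 fold change -0.15 ± 0.09 (SE), adjusted p = 0.201). Nr1h3, the other LXR, had 10, 10 and 4 counts in control, 5, 2 and 7 in HD-het and 7, 8 and 14 in HD-homo libraries and was too low to be tested.

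**Figure D4:**
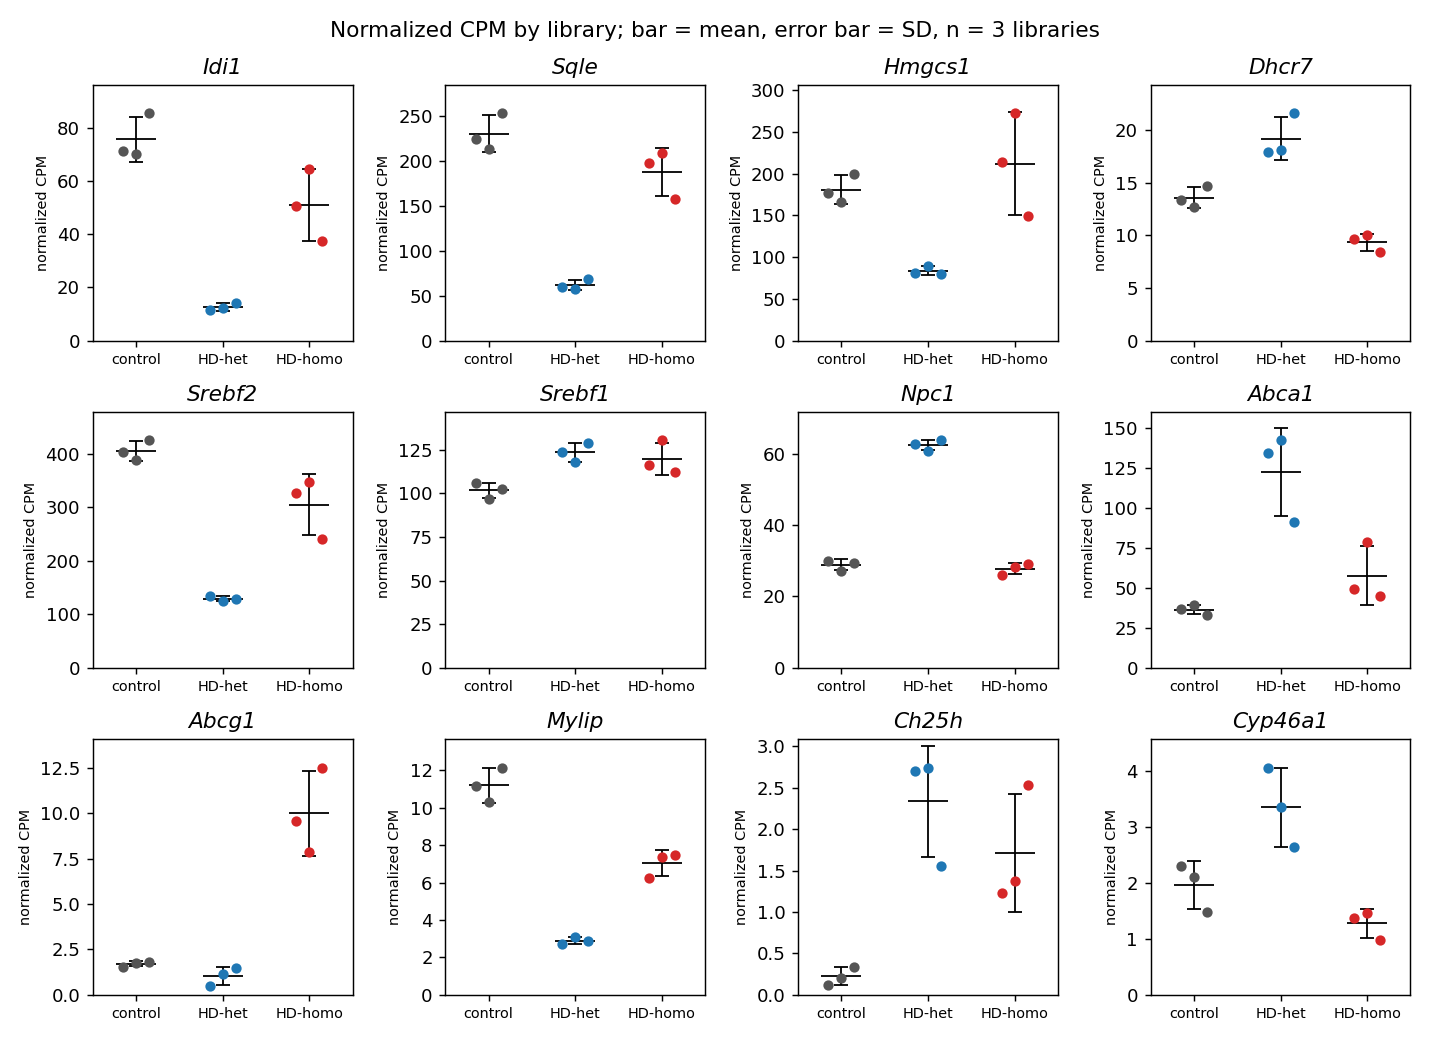
Normalized CPM of 12 genes in each library (dots) of the control, HD-het and HD-homo lines, with the mean as a bar and the SD as an error bar (n = 3 libraries); every axis starts at 0. Idi1, Sqle, Srebf2 and Mylip are lowest in HD-het, Npc1 and Abca1 are highest there, Abcg1 is highest in HD-homo, and Dhcr7 and Cyp46a1 are above control in HD-het and below it in HD-homo libraries.

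The 3 hydroxylases that make oxysterols were all at low levels. Ch25h, which makes 25-hydroxycholesterol, had 4, 7 and 10 counts in control, 96, 90 and 52 in HD-het and 40, 58 and 85 in HD-homo libraries, or 0.124, 0.208 and 0.338, 2.71, 2.74 and 1.56 and 1.23, 1.37 and 2.54 CPM. Every HD library lay above every control library. The level of Ch25h was 10.4-fold that of control cells in HD-het (log2 fold change 3.38 ± 0.43 (SE)) and 7.66-fold in HD-homo cells (log2 fold change 2.93 ± 0.44 (SE)). It entered the tested set through the HD libraries, and these folds are given as a description, without a p value. An annotated gene on the opposite strand, Gm26902, shares 11.5% of its exon bases.

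Cyp27a1, the mitochondrial hydroxylase that makes 27-hydroxycholesterol, had 1, 0 and 0 counts in control, 2, 5 and 0 in HD-het and 16, 16 and 14 in HD-homo libraries. All HD-homo libraries were above the rest. Against the floor of 3 counts in each control library, its HD-homo level was at least 4.53-fold higher, and no fold is given for HD-het cells. This too is a description, since the gene entered the tested set through the HD-homo libraries. Cyp46a1, the neuronal enzyme that makes 24-hydroxycholesterol, was at 2.302, 2.11 and 1.49 CPM in control, 4.06, 3.35 and 2.64 in HD-het and 1.38, 1.47 and 0.984 in HD-homo libraries. The lines did not overlap, with HD-het above and HD-homo below control cells. It was 1.703-fold higher in HD-het (log2 fold change 0.76 ± 0.22 (SE), adjusted p = 0.0098) and 1.54-fold lower in HD-homo cells (log2 fold change -0.62 ± 0.24 (SE), adjusted p = 0.0441). The first call was lost without HD-het replicate 1 (0.60, adjusted p = 0.0530), and the second was lost without control replicate 1 or 2 or HD-homo replicate 1 or 3.

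Setting synthesis against export, the summed level of the 8 efflux and oxysterol genes was 84.3 ± 4.86 CPM (SD, n = 3) in control, 172 ± 32.8 in HD-het and 108 ± 17 in HD-homo libraries. Most of that sum was Abca1 and Nr1h2. The order of the means was the reverse of that for the synthesis sum, which was highest in control and lowest in HD-het cells. This order was that of Abca1, at 36.4, 123 and 57.8 CPM over control, HD-het and HD-homo cells. Ch25h shared it at a low level, whereas Abcg1, Nr1h2, Nr1h3, Mylip, Cyp27a1 and Cyp46a1 had other orders of the lines. The reversed order is therefore not a trait of the group. The difference between the groups of genes was not tested. As a level per kilobase of exon, Srebf2 was the highest of the 35 genes in control cells at 56.5 CPM per kilobase, Npc2 in HD-het cells at 27.4 and Hmgcs1 in HD-homo cells at 46.1. Idi1 went from rank 8 of the 35 genes in control cells to rank 26 in HD-het and rank 9 in HD-homo cells.

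Further lists cover pathways next to cholesterol synthesis, and their counts stand against 33.8% higher and 31.4% lower in HD-het and 29.6% higher and 28.9% lower in HD-homo cells over all tested genes. The values given with the genes of this and the next lists are log2 fold changes against control ± SE. Of 13 fatty acid synthesis genes, a neighbouring SREBP target group, 8 were lower and 1 was higher in HD-het cells, and 7 were lower and 2 higher in HD-homo cells. Elovl6, a fatty acid elongase, was at 78.5 ± 7.55 CPM in control and 15.8 ± 1.5 in HD-het cells (log2 fold change -2.31 ± 0.11, adjusted p = 3.2e-08), the largest decrease there, and the malic enzyme Me1 was higher (0.29 ± 0.06). In HD-homo cells Fads2, a desaturase, fell most (-1.12 ± 0.09, adjusted p = 9.5e-07), and Lpin1, a phosphatidate phosphatase, was higher (1.02 ± 0.23). Of 10 genes that use isoprenoids for prenylation, dolichol or ubiquinone, 2 were higher and 3 lower in HD-het cells, the latter near the share of all genes, with Dolk at 0.52 ± 0.09 and Nus1 at -0.71 ± 0.07, and 5 were higher and 2 lower in HD-homo cells, with the farnesyltransferase subunits Fnta at 0.37 ± 0.05 and Fntb at -0.47 ± 0.08.

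The SREBP processing list of 6 genes had 2 lower and 0 higher in HD-het cells, the ligase Rnf139 (-0.88 ± 0.07) and the scaffold Erlin1 (-0.36 ± 0.07), and 2 lower and 1 higher in HD-homo cells, with Rnf139 at -0.41 ± 0.07 and Erlin1 at 0.31 ± 0.07. Among 5 genes of lipoprotein uptake, 2 were higher and 2 lower in HD-het cells. There Vldlr, a lipoprotein receptor, rose from 78.7 ± 6.802 to 182 ± 41.5 CPM (1.21 ± 0.20, adjusted p = 0.00024) and Lrp8, a related receptor, fell from 96.4 ± 2.002 to 29.2 ± 3.18 CPM (-1.72 ± 0.08, adjusted p = 2.1e-08). In HD-homo cells 0 were higher and 3 lower, with the receptor Lrp1 at -0.80 ± 0.10 and Lrp8 at -0.63 ± 0.08.

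Further LXR partners and targets were split between the directions. Of 7 tested out of 8, 2 were higher and 1 lower in HD-het cells, neither above the 33.8% and 31.4% of all tested genes, Smpdl3a having risen from 0.608 ± 0.148 to 6.98 ± 0.6605 CPM (3.51 ± 0.18, adjusted p = 3.9e-08) and Arl4c being lower (-0.31 ± 0.12). In HD-homo cells 3 were higher and 4 lower, with the phospholipid-remodelling enzyme Lpcat3 at 1.23 ± 0.10 and the transporter Abcg4 at -2.34 ± 0.42. Abcg4 was at 0.814 ± 0.282 CPM in control and 0.161 ± 0.0491 in HD-homo cells, near the floor there (0.0710 to 0.0920 CPM). It entered the tested set through libraries in which it was higher, so that the count of lower genes in HD-homo cells is a description. Of 5 tested genes of oxysterol breakdown, out of 6, 4 were higher and 1 lower in HD-het cells. Cyp7b1, an oxysterol hydroxylase, had 0 counts in all control libraries and at least a 4.90-fold higher level in HD-het cells, where it was at 0.464 ± 0.0631 CPM. Cyp7b1 entered the tested set through the HD-het libraries, so that the count of higher genes there is a description. The sulfotransferase Sult2b1 was lower in both lines (-3.45 ± 0.30 in HD-het and -1.71 ± 0.23 in HD-homo cells). It was at 1.00 ± 0.0861 CPM in control, 0.0894 ± 0.0328 in HD-het and 0.304 ± 0.0263 in HD-homo cells. The HD-het level was at the floor of 3 counts (0.0846 to 0.0915 CPM), so that the size of the decrease there is uncertain. Sult2b1 entered the tested set through libraries in which it was higher, and the count of lower genes in HD-het cells is a description too. Against control, 2 were lower and 0 higher in the HD-homo line, Sult2b1 and Hsd3b7 (-0.85 ± 0.09).

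Among 14 further genes of sterol transport and storage, 9 were higher and 3 lower in HD-het cells, and 5 were higher and 4 lower in HD-homo cells. The counts in HD-homo cells were near the 29.6% and 28.9% of all tested genes. Soat2, the second cholesterol acyltransferase, was at 0.3998 ± 0.06996 CPM in control, 2.96 ± 0.273 in HD-het and 1.698 ± 0.391 in HD-homo cells, the largest increase of this list in both lines (2.88 ± 0.24 and 2.07 ± 0.25). Tspo, a mitochondrial cholesterol-binding protein, had the largest decrease in HD-het cells (-0.47 ± 0.05). Stard5, a sterol carrier, was at 12.1 ± 0.796 CPM in control and 3.85 ± 0.162 in HD-homo cells (-1.65 ± 0.09, adjusted p = 3.8e-08), the largest decrease there.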

How the data were processed

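RNA-seq libraries were made from 3 striatal lines, 3 libraries per line, from miRNeasy total RNA with poly(A) selection and a strand-specific kit. The authors deposited raw counts per gene symbol, without normalization. Their processing notes name cutadapt, Bowtie 1.1.2, RSEM 1.3.0, DESeq2 and the builds GRCm38.p5 and mm10. If RSEM made the counts, they were rounded before deposit, which is not stated, and neither is the use of strand in counting. All sample columns were used, and the table holds no columns of the authors' own comparisons.

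The test was that of edgeR 4.0.16 (R 4.3.3) by quasi-likelihood, with 9 libraries and a mean for each line, after filterByExpr (minimum count 10, lines as groups) and TMM normalization. The paper names no test for these counts. P values were adjusted by Benjamini-Hochberg over the 13508 tested genes in each comparison, at a threshold of 0.05, and tools were tested on simulated data. Normalized CPM used TMM-scaled totals of tested genes. Positions, exon lengths and overlaps came from GENCODE M21 on GRCm38, and promoters from RefSeq on GRCm38.p6. The 35 genes and the lists were chosen with earlier results of these data known. All listed genes are named. From each further list, the genes with the highest and the lowest called log2 fold change in each HD line against control cells are named. From marker lists, at least the genes under 1 CPM throughout and the most abundant gene are named. Some sterol and marker genes were not analysed here. Alternatives were DESeq2 size factors, library totals, the DESeq2 1.42.0 Wald test, no filter, at least 10 counts in every library, only the lines compared, the replicate number as a block, each library left out, a prior count of 2, an adjusted p of 0.01 and a log2 fold change of at least 1. Depth was 29507665 to 41197931 counts per library, and floors cover counting error only.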

Additional observations from a re-analysis of the deposited data

How the results depend on the processing

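Of the called genes of the list, 16 of 26 in HD-homo against control, 24 of 29 in HD-het against control and 21 of 25 in HD-homo against HD-het cells passed in each of 14 alternative fits. Ch25h and Cyp27a1 were not tested, and so not counted as passing, with at least 10 counts in every library. The same-numbered libraries were not taken as pairs, since the correlations of their deviations from the line means were 0.0226 to 0.0398 (HD-homo and control), 0.0682 to 0.245 (HD-het and control) and 0.0322 to 0.202 (HD-homo and HD-het). Libraries correlated best with their own number in 6 of 6, 5 of 6 and 4 of 6 cases, a hint from the data and not the design. With the replicate number as a block, 2 efflux and oxysterol genes in place of 1 were lower in HD-het cells, as with DESeq2 and with only the lines compared, and in HD-homo against control cells Sqle was lost (adjusted p = 0.0533) and Nr1h2 gained (0.0498). Low filters moved the median log2 fold change of the efflux and oxysterol genes by changing which genes entered it. Against control it was 0.38 in HD-homo and 0.52 in HD-het cells with no filter and -0.14 and 0.30 with at least 10 counts in every library, when 2 were higher in HD-homo cells. Between the HD lines it was 0.26 with no filter. Leaving out single libraries gave 0.38 to 0.81 for this median in HD-homo and 0.60 to 0.91 in HD-het cells, 1 to 2 such genes lower in each, 2 to 5 higher in HD-het cells, and 0 to 1 synthesis enzymes higher in HD-homo cells. Library totals without TMM gave 1 efflux and oxysterol gene lower in HD-homo cells.

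At an adjusted p of 0.01, HD-homo cells had 13 listed genes, 9 synthesis enzymes and 1 efflux or oxysterol gene lower than control. A log2 fold change of at least 1 left 1367 genes higher and 1207 lower in HD-homo against control, 1622 and 868 in HD-het against control, and 1399 and 1886 in HD-homo against HD-het cells. Of the list these were 3 higher and 1 lower (1 synthesis enzyme lower, 0 efflux or oxysterol genes lower), 3 higher and 11 lower (0 synthesis enzymes higher and 8 lower, 2 efflux or oxysterol genes higher), and 7 higher and 5 lower (3 synthesis enzymes higher), in that order. Some uncalled values changed sign, and the cause was not tested. With single libraries left out, Insig1 ran from -0.40 to 0.15 in HD-homo against control cells, being 0.042 without control replicate 3, 0.012 without HD-homo replicate 1 and 0.15 without HD-homo replicate 3. Lss ran from -0.045 (without HD-homo replicate 2) to 0.21. In HD-het against control cells Tm7sf2 ran from -0.32 to 0.11, being 0.11 and 0.031 without HD-het replicates 1 and 2, Scap from -0.050 to 0.026 (without HD-het replicate 2) and Ebp from -0.076 (without HD-het replicate 3) to 0.25. Between the HD lines Npc2 ran from -0.19 to 0.060, being 0.035 without HD-het replicate 3, 0.027 without HD-homo replicate 1 and 0.060 without HD-homo replicate 2, and was 0.000812 with library totals, and Pmvk ran from -0.025 (without HD-homo replicate 2) to 0.25. Counts of 10 or fewer limit Cyp27a1 in control and HD-het cells and Ch25h in control cells.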
